A study of Mus musculus with 16 samples.

Results

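Flt1, Ets1, Adgrf5, St6galnac3 and Vwf are 5 genes of vessel lining cells whose circular RNAs (circRNAs) were measured in mouse hearts. They are 5 of the 8610 host genes listed in the deposited table of back-splice reads, and all rows that name one of them as host gene were taken. Those rows are 97 of 68854 listed circRNAs, and 67 of the 97 had a count in at least 1 library, out of 40381 in the whole table. The genes were selected on measured values of these same libraries, chiefly their host gene fold changes in MIRI+Compound C against MIRI. That comparison, and MIRI+AICAR against MIRI+Compound C, are therefore described below with no p-value.

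The libraries came from hearts of male C57BL/6 mice in 4 groups: MIRI+AICAR (n = 5), MIRI+Compound C (n = 5), MIRI (n = 3) and Sham (n = 3). MIRI is injury by ischaemia and reperfusion, made by ligating the left anterior descending artery for 30 min and then letting blood back in for 1 week. AMPK is a kinase that responds when a cell runs short of energy. AICAR is used to activate it and Compound C to inhibit it. No dose or route is given in the labels, and Sham was the one group with no ligation. The design names 32 mice, 8 a group, and the labels do not say how these became 16 libraries or that replicates were separate mice. The p-values here measure the spread between these libraries, which may be technical.

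Endothelial cells line every vessel, form the capillaries that run beside heart muscle fibres, and answer growth factors of the VEGF family through receptors on their surface. They also make proteins that act in clotting and that steer white blood cells into tissue. A circRNA forms when the splicing machinery joins the end of an exon back to the start of the same or an earlier exon, and the resulting ring lacks the ends that exonucleases attack. Its level therefore need not follow that of the linear mRNA of the same gene, which was not measured in these RNase R treated libraries.

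Among the 5, Flt1 encodes VEGF receptor 1, which binds VEGF-A, VEGF-B and placental growth factor and is also made as a soluble form that traps ligand. Adgrf5 encodes an adhesion G protein-coupled receptor of endothelium that is also found in lung epithelium. Ets1 encodes a transcription factor of the ETS family that acts in endothelial cells and in lymphocytes. St6galnac3 encodes a sialyltransferase, an enzyme that adds sialic acid to sugar chains of lipids and proteins. Vwf encodes von Willebrand factor, the large glycoprotein that tethers platelets to damaged vessel walls, made by endothelial cells and by megakaryocytes, the cells that shed platelets.

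The cell type field of the labels reads cardiac muscle cell, yet no sort or cell isolation is described. Markers of several cell types were present. Summed over host genes in CPM (back-splice reads scaled to the depth of each library), 10 cardiac muscle genes held 22190 to 39170 CPM per library, 26 endothelial genes other than the 5 held 5719 to 10320, and 12 leukocyte genes held 1890 to 4541. The endothelial genes Pecam1, Tek, Tie1 and Emcn had enough circRNA reads to be tested. Cdh5 and Kdr were below the filter on low counts, and Eng, Erg and Cldn5 had no counted circRNA. The smallest count above 0 in the table is 2, so a gene or circle at 0 may have had single reads. In such tissue libraries fewer endothelial cells and less circRNA per endothelial cell cannot be told apart, and the cell that held each circRNA was not observed.

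Total counts ran from 119948 to 240889 per library. MIRI replicate 1 stood apart before any comparison: 7 host genes of the platelet and megakaryocyte list summed to 16860 CPM there, and to 5360 CPM in MIRI+AICAR replicate 5. The other 14 libraries lay between 1581 and 2222 CPM. The results on the 5 genes that rest on these libraries, and the marker calls that change without them, are given with and without them. Correlations between single host genes are given over all 16 libraries only.

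The back-splice junctions of the most abundant circles are shown because each is the sequence that identifies the circle and that no linear transcript of the gene holds. The last 20 bases of the donor exon are in lower case, and the first 20 bases of the acceptor exon to which they are joined are in capitals, 5′ to 3′ on the gene's strand. They were read from GENCODE M21 transcripts on GRCm38, as the annotated exon ends at the listed coordinates predict, and are written as DNA. The table's names of the circles are kept.
Flt1 novel_circ_050038, exons 2 to 3: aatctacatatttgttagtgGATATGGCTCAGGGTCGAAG
Flt1 novel_circ_050022, exons 12 to 14: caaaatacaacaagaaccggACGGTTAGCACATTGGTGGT
Ets1 novel_circ_065373, exons 4 to 6: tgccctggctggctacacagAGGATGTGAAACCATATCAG
Ets1 novel_circ_065369, exons 2 to 6: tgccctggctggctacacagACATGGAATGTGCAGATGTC
Ets1 novel_circ_065368, exons 2 to 5: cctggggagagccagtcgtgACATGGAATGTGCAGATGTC
Adgrf5 novel_circ_028646, exons 3 to 9: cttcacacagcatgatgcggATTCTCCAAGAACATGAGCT
Adgrf5 novel_circ_028647, exons 3 to 10: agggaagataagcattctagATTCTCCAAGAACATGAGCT
Adgrf5 novel_circ_028648, exons 3 to 13: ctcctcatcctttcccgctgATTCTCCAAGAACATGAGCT
St6galnac3 novel_circ_042340, exon 3: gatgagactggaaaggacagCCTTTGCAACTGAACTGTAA
Vwf novel_circ_055614, exons 4 to 6: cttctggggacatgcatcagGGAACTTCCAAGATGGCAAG

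These junctions show how the circles of a gene share splice sites. All 3 Adgrf5 circles have the same capitals, the start of exon 3 at position 43410502 of chromosome 17, and differ in their donor. That acceptor was used by 7 Adgrf5 circles, which held 86.0% of the reads of the gene. The 2 Ets1 circles that end in exon 6 share their lower-case bases, and that donor served 5 circles with 72.5% of Ets1 reads. In St6galnac3 a single exon joined to itself carried nearly all reads.

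The Flt1 gene lies at chr5:147561604-147726011 on the minus strand of GRCm38 and has 30 exons in the reference transcript. Its 21 circles with a count held 1135 reads over the 16 libraries. The most abundant, novel_circ_050038 at chr5:147699782-147700417, is 327 nt of coding exons 2 and 3 and held 510 reads, 44.9% of the gene. It ranked 882 of the 40381 circRNAs by reads. A back-splice read is counted at 1 junction whatever the length of the circle. The intron before exon 2, 25253 nt, is the longest of the 29 introns of the gene, and the intron after exon 3 has 15840 nt, against a median of 2618 nt.

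The next Flt1 circle, novel_circ_050022 at chr5:147634377-147646233, held 201 reads and spans exons 12 to 14. These exons of the full-length transcript sum to 565 nt, while the table lists a spliced length of 4631 nt. The listed length is reached when exon 13 is taken in its 4375 nt form, the last exon of an annotated short transcript of 13 exons that ends inside the gene, in place of its 309 nt form. Transcripts that end early in this region of Flt1 encode the soluble receptor. In the short transcript the 4375 nt form is joined to no later exon, whereas the circle reaches exon 14. The listed length thus combines exons of the full-length and the short transcript. The table gives a length from annotation, and which form of exon 13 lies inside the circle was not measured. The circle that came next, novel_circ_050013 of exons 25 to 27, held 86 reads, and its flanking introns of 2085 and 2037 nt were below the median of the gene.

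Adgrf5 lies at chr17:43360451-43459557 on the plus strand and has 21 exons. Its 14 circles with a count held 430 reads, of which the 928 nt circle of exons 3 to 9, novel_circ_028646, held 247 (57.4%). The circles of exons 3 to 10 and 3 to 13 followed with 67 and 44 reads.

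Ets1 lies at chr9:32636221-32757820 on the plus strand and has 8 exons. Its 12 circles with a count held 1119 reads, and the 588 nt circle of exons 4 to 6, novel_circ_065373 at chr9:32732949-32738359, held 694 of them (62.0%). The circle of exons 2 to 5 (novel_circ_065368) held 257 reads and that of exons 2 to 6 (novel_circ_065369) held 67. All 8 circles that match exons of the reference transcript lay within exons 2 to 6, so none held exons 7 and 8. By the sum of their reference exons, all 8 had a length that is a multiple of 3, against 3 of 21 in Flt1, 4 of 11 in Adgrf5, 5 of 12 in Vwf and 0 of 2 in St6galnac3. The 8 Ets1 circles share exons, so these are not separate observations. Exons 2 to 3 have 321 nt, exons 4 to 5 have 327 nt and exon 6 has 261 nt, each a multiple of 3. The ETS domain, which binds DNA, lies towards the C-terminal end of the protein.

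St6galnac3 lies at chr3:153198266-153725174 on the minus strand and has 5 exons in its reference transcript. Its 8 circles with a count held 1524 reads, and the 410 nt circle of exon 3 alone, novel_circ_042340 at chr3:153411462-153411871, held 1433 (94.0%). It ranked 289 of 40381, the highest of the top circles of the 5 genes. The exon sits between introns of 97431 and 204736 nt. Exon 3 joined to exon 2 (novel_circ_042343) held 29 reads in 10 libraries.

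Vwf lies at chr6:125546774-125686679 on the plus strand and has 52 exons. Its 12 circles with a count held 221 reads, the fewest of the 5 genes. The 437 nt circle of exons 4 to 6, novel_circ_055614 at chr6:125565783-125570624, held 91 (41.2%), and its flanking introns of 10268 and 17792 nt are the second longest and the longest of the 51 introns of the gene, whose median is 1374 nt. Next came novel_circ_055621 of exons 17 to 18 with 34 reads in 9 libraries and novel_circ_055618 of exons 14 to 16 with 31 reads in 5 libraries, 13 of them in MIRI replicate 1 and 9 in MIRI+AICAR replicate 5. Of all circles of the 5 genes with both ends on exon ends of 1 transcript, 55 of 57 lay wholly in coding sequence by the exons of that transcript. Those exons summed to the listed length in 51 of the 57. In the others, among them Flt1 novel_circ_050022, the exons inside the circle may differ.

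**Figure D1:**
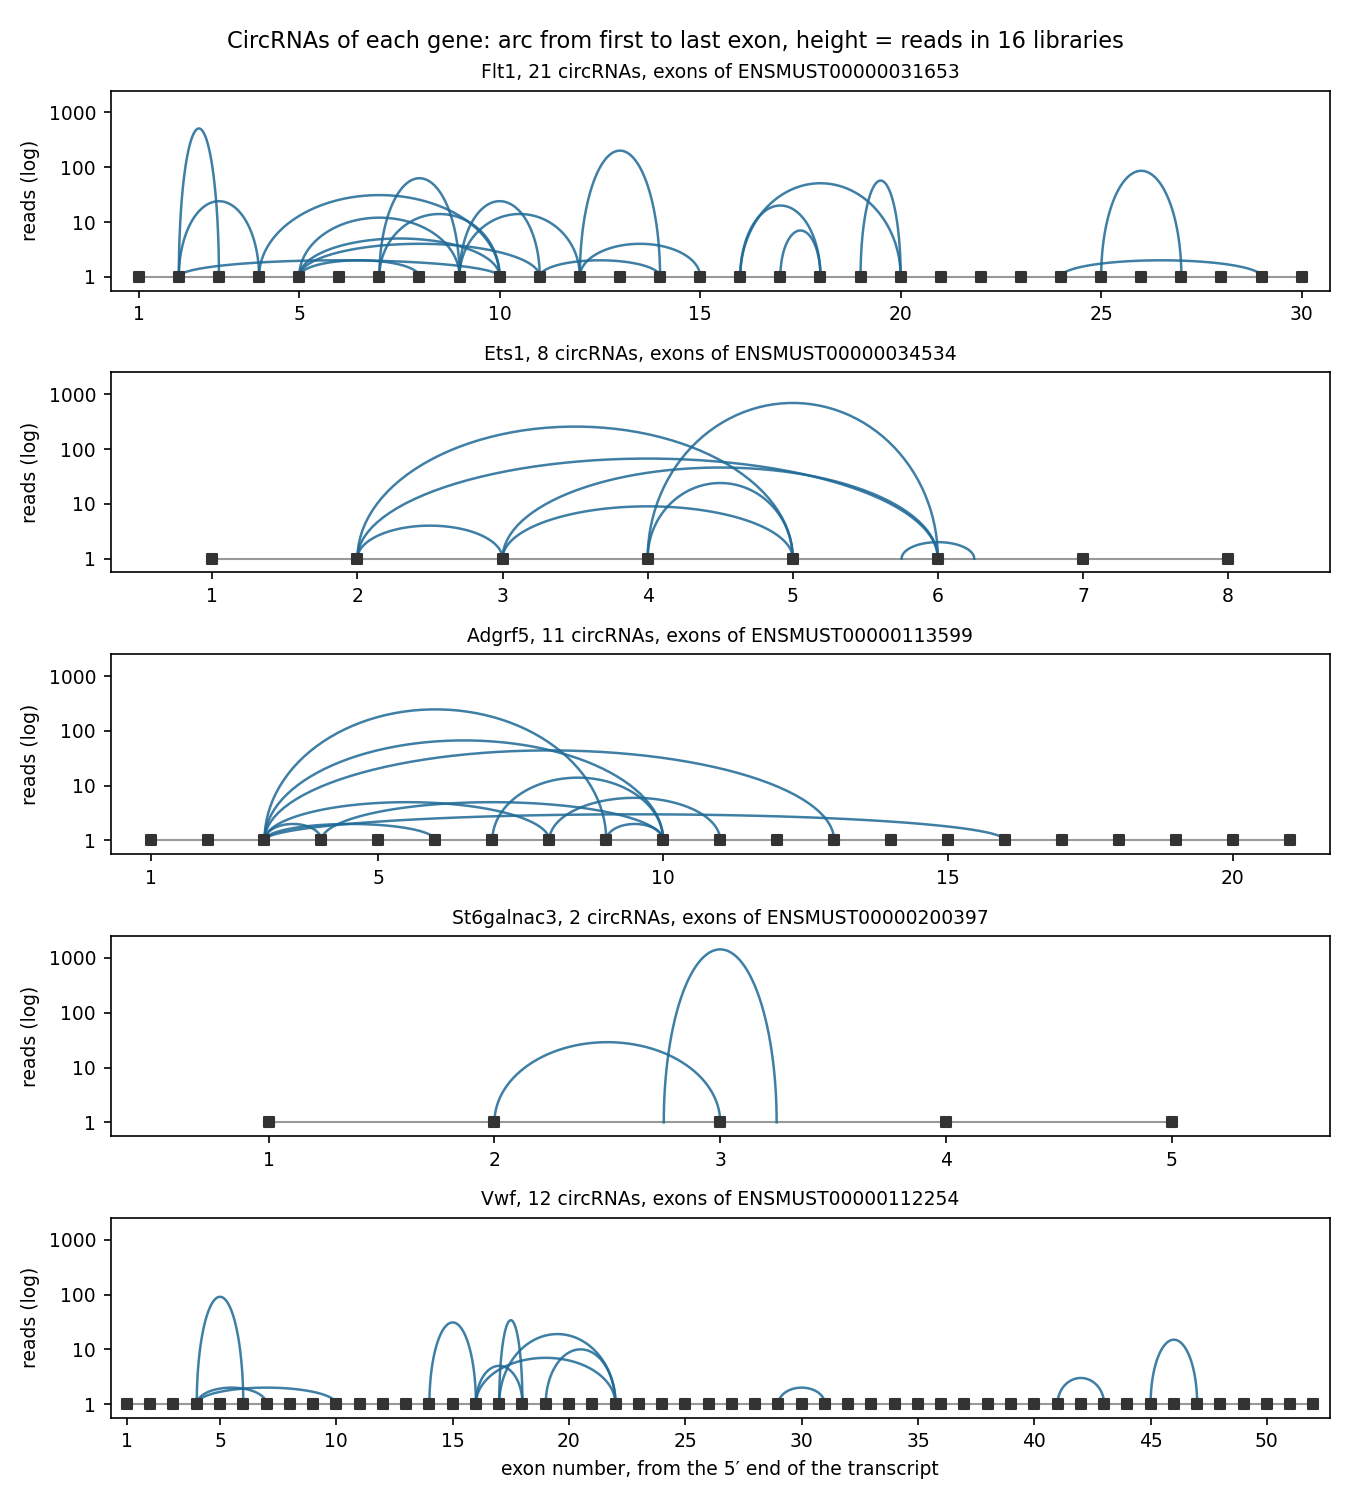
CircRNAs of the 5 genes drawn along the exons of the reference transcript of each gene, from its 5′ end. Each arc joins the first and last exon of a circle, and its height is the number of reads in 16 libraries on a log scale. Adgrf5 arcs gather at exon 3 and Ets1 arcs stay within exons 2 to 6, while Flt1 arcs spread over exons 2 to 29.

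Values by library follow, as CPM of the back-splice reads summed over all circles of a gene. Flt1 stood at 292.9, 290.6, 292.7, 409.3 and 273.6 CPM in MIRI+AICAR libraries and at 707.6, 557.7, 526.0, 522.6 and 571.6 CPM in MIRI+Compound C libraries. MIRI libraries had 392.5, 365.3 and 335.8 CPM and Sham libraries 463.8, 360.5 and 580.1 CPM. Every MIRI+Compound C library lay above every MIRI+AICAR library and every MIRI library, whereas Sham libraries overlapped with each of the other groups. Flt1 averaged 311.8 ± 55.1 CPM in MIRI+AICAR, 577.1 ± 75.9 in MIRI+Compound C, 364.5 ± 28.3 in MIRI and 468.1 ± 109.9 in Sham (SD). By mean the order from the top was MIRI+Compound C, Sham, MIRI and MIRI+AICAR, and each step between neighbours was smaller than the larger of the 2 SDs.

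Adgrf5 had 157.7, 133.7, 139.6, 120.6 and 144.9 CPM in MIRI+AICAR libraries and 218.9, 166.7, 299.0, 213.5 and 165.3 CPM in MIRI+Compound C libraries. It had 115.0, 83.8 and 176.3 CPM in MIRI libraries and 146.0, 183.6 and 140.3 CPM in Sham libraries. All MIRI+AICAR libraries lay below all MIRI+Compound C libraries, and every other pair of groups overlapped. The means were 139.3 ± 13.7 CPM in MIRI+AICAR, 212.7 ± 54.4 in MIRI+Compound C, 125.1 ± 47.1 in MIRI and 156.6 ± 23.6 in Sham, so that MIRI+Compound C was followed by Sham, MIRI+AICAR and MIRI. The step of 56.0 CPM from MIRI+Compound C to Sham exceeded the larger SD of 54.4, with overlap between their libraries, and the other steps did not.

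Ets1 stood at 399.9, 424.2, 261.2, 374.8 and 364.8 CPM in MIRI+AICAR, at 612.8, 500.2, 476.1, 533.8 and 406.3 CPM in MIRI+Compound C, at 297.8, 419.2 and 403.0 CPM in MIRI and at 369.3, 462.5 and 497.3 CPM in Sham. Libraries of each pair of groups overlapped. The means were 365.0 ± 62.4 CPM in MIRI+AICAR, 505.9 ± 75.9 in MIRI+Compound C, 373.3 ± 65.9 in MIRI and 443.0 ± 66.1 in Sham, in the same order as for Flt1. MIRI+AICAR and MIRI differed by 8.32 CPM, far less than either SD, while the step of 69.7 CPM between MIRI and Sham exceeded the larger SD of 66.1.

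St6galnac3 was even in MIRI+AICAR, with 416.8, 441.7, 360.3, 456.7 and 439.9 CPM, and uneven in MIRI+Compound C, with 992.1, 425.5, 681.0, 724.8 and 619.8 CPM. MIRI libraries had 1205, 515.0 and 419.8 CPM and Sham libraries 558.3, 544.1 and 605.6 CPM. The 1205 CPM belong to MIRI replicate 1, the library with the high platelet list. A circle of St6galnac3 seen in no other library, novel_circ_042339, held 37 reads there, and novel_circ_042340 took 74.7% of the gene's reads there against 91.9% to 100% in the other 15 libraries. Every MIRI+AICAR library lay below every Sham library, with means of 423.1 ± 37.9 CPM in MIRI+AICAR and 569.3 ± 32.2 CPM in Sham. MIRI+Compound C averaged 688.7 ± 204.6 CPM and MIRI 713.1 ± 428.2 CPM, and the steps between MIRI, MIRI+Compound C and Sham, the order by mean, stayed within the larger SD.

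Vwf rested on few reads. MIRI+AICAR libraries held 21, 13, 25, 18 and 31 reads, which is 118.3, 75.6, 112.6, 77.6 and 166.3 CPM. MIRI+Compound C libraries held 3, 17, 5, 4 and 2 reads (21.9, 97.8, 27.7, 22.5 and 13.8 CPM), MIRI libraries 54, 9 and 3 (365.4, 53.9 and 25.2 CPM) and Sham libraries 0, 10 and 6 (0, 68.0 and 38.3 CPM). All MIRI+AICAR libraries were above all Sham libraries, and 4 of 5 MIRI+Compound C libraries were at 13.8 to 27.7 CPM. MIRI replicate 1 was far above the other 15, and 9 of the 12 Vwf circles were seen in it, against 0 in Sham replicate 1 and 1 to 6 in the other libraries. By mean MIRI was followed by MIRI+AICAR, MIRI+Compound C and Sham, and of these steps only that from MIRI+AICAR (110.1 ± 37.0 CPM) to MIRI+Compound C (36.7 ± 34.5 CPM) exceeded the larger SD.

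**Figure D2:**
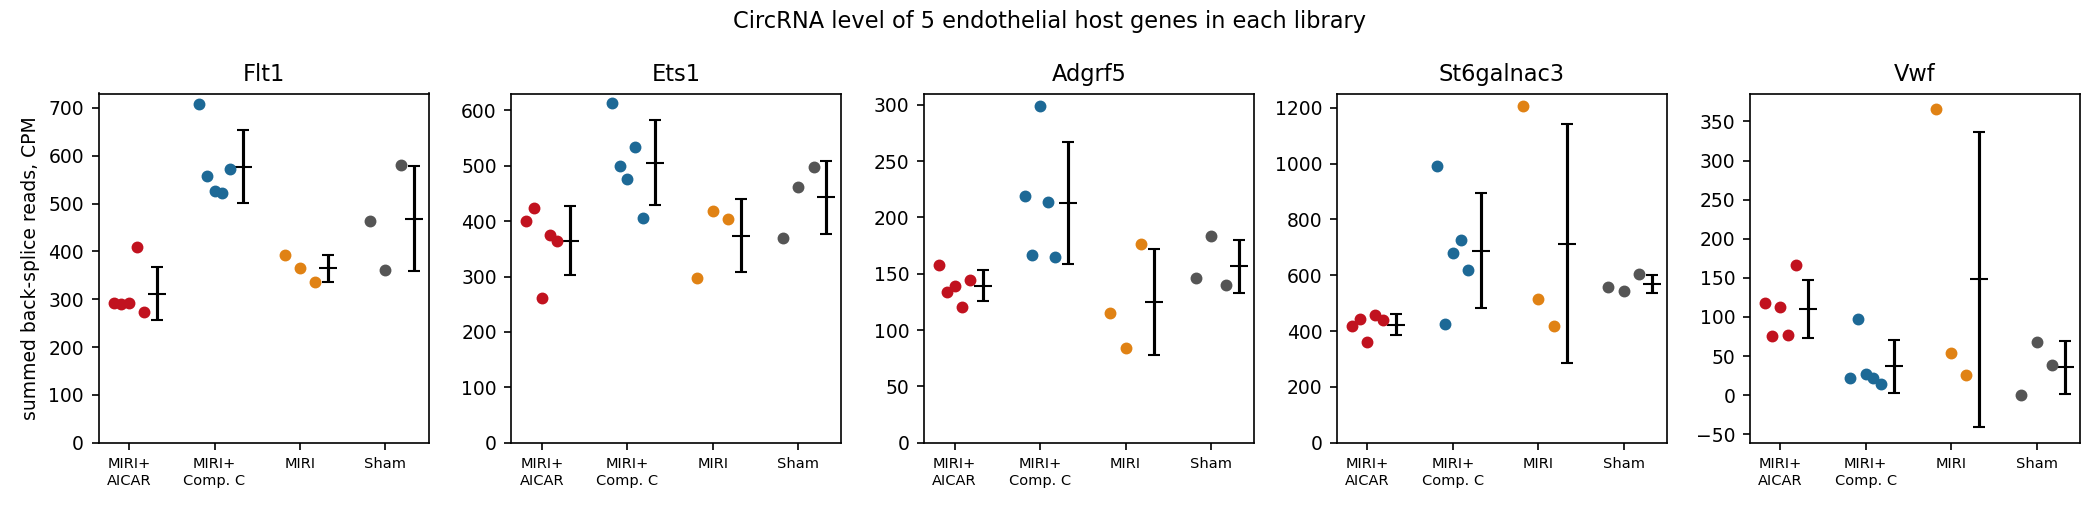
Summed back-splice reads of each gene in CPM, 1 point per library in MIRI+AICAR (n = 5), MIRI+Compound C (n = 5), MIRI (n = 3) and Sham (n = 3), with mean ± SD beside the points. Flt1 points of MIRI+Compound C sit between 522.6 and 707.6 CPM, above all MIRI+AICAR and MIRI points, and 1 MIRI library stands high in St6galnac3 and Vwf.

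MIRI+Compound C against MIRI, the comparison in view when the genes were chosen, concerns inhibition of AMPK after the injury. The log2 fold change was 0.65 for Flt1 (SE 0.18), 0.80 for Adgrf5 (SE 0.27), 0.44 for Ets1 (SE 0.19), -0.06 for St6galnac3 (SE 0.24) and -1.97 for Vwf (SE 0.62). Libraries did not overlap for Flt1, 1 of the 5 genes. Across all 3699 host genes tested, MIRI+Compound C libraries lay wholly above MIRI libraries in 3.54% and wholly below in 2.41%. The Vwf value rested on MIRI replicate 1 and was -0.12 without it. For St6galnac3 it was 0.55 without that library.

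MIRI+AICAR against MIRI+Compound C, which sets activation of AMPK against its inhibition, gave a log2 of -0.88 for Flt1 (SE 0.15), -0.62 for Adgrf5 (SE 0.21), -0.47 for Ets1 (SE 0.16), -0.70 for St6galnac3 (SE 0.21) and 1.52 for Vwf (SE 0.56). Flt1 and Adgrf5, 2 of the 5 genes, had all MIRI+AICAR libraries below all MIRI+Compound C libraries, as had 2.24% of all host genes, and 2.57% lay wholly above. This comparison shares the MIRI+Compound C libraries with MIRI+Compound C against MIRI and is not independent of it. Without MIRI+Compound C replicate 2 the Vwf value was 2.30.

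Single circles showed which part of each gene carried these values. In MIRI+Compound C against MIRI, 9 of the 12 circles with enough reads had positive and 3 negative fold changes, and in MIRI+AICAR against MIRI+Compound C 9 were negative and 3 positive. In the first, 4 of the 12 lay wholly higher, as did 2.46% of all tested circles, and 0 wholly lower, against 2.43%. In the second, 3 lay wholly lower, against 1.44% of all tested circles, and 0 wholly higher, against 1.78%. The genes were chosen on these comparisons, so nothing is read from these counts. For Flt1 novel_circ_050038 the CPM were 124.6, 107.0, 145.3, 207.3 and 113.9 in MIRI+AICAR, 292.1, 248.9, 266.5, 296.3 and 292.2 in MIRI+Compound C, 167.8, 210.7 and 190.6 in MIRI, and 343.6, 167.7 and 209.4 in Sham. MIRI+Compound C libraries of this circle averaged 279.2 ± 20.7 CPM and lay above all MIRI+AICAR and MIRI libraries. CPM of single circles are scaled over the tested circles and are not on the scale of the gene sums.

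Flt1 novel_circ_050022, the circle that reaches over exon 13, averaged 64.5 ± 16.1 CPM in MIRI+AICAR, 108.6 ± 18.2 in MIRI+Compound C, 62.6 ± 9.48 in MIRI and 83.2 ± 58.7 in Sham. Its MIRI+Compound C libraries, 80.3 to 127.3 CPM, again lay above all MIRI+AICAR and MIRI libraries, while the 3 Sham libraries ran from 35.2 to 148.6 CPM. Flt1 novel_circ_050033, of exons 7 to 9, averaged 28.1 ± 5.51 CPM in MIRI+AICAR, 36.8 ± 17.8 in MIRI+Compound C, 11.6 ± 11.0 in MIRI and 13.9 ± 13.5 in Sham. Its MIRI+AICAR and MIRI+Compound C libraries overlapped.

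The Ets1 circle novel_circ_065368, of exons 2 to 5, had 99.7, 56.6, 80.2, 72.3 and 77.9 CPM in MIRI+AICAR, 209.7, 118.2, 103.0, 172.8 and 131.5 in MIRI+Compound C, 87.5, 102.1 and 86.7 in MIRI and 114.5, 80.2 and 108.1 in Sham. All MIRI+Compound C libraries were above all MIRI+AICAR and MIRI libraries. The more abundant novel_circ_065373 averaged 263.6 ± 56.4 CPM in MIRI+AICAR, 311.1 ± 45.0 in MIRI+Compound C, 238.5 ± 62.4 in MIRI and 313.2 ± 79.3 in Sham, and its libraries overlapped between all groups.

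Adgrf5 circles did not all share a sign. Novel_circ_028646 averaged 90.4 ± 19.5 CPM in MIRI+AICAR, 137.7 ± 70.6 in MIRI+Compound C, 68.3 ± 23.7 in MIRI and 86.1 ± 40.5 in Sham. Novel_circ_028647 averaged 15.6 ± 13.3 CPM in MIRI+AICAR, 31.5 ± 10.5 in MIRI+Compound C, 43.2 ± 24.1 in MIRI and 29.3 ± 10.2 in Sham. In MIRI+Compound C against MIRI the first had a log2 of 1.04 (SE 0.40) and the second of -0.42 (SE 0.67), and the difference between them was not tested.

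The share that the most abundant circle took of its gene was set side by side for Flt1, Ets1 and St6galnac3, which had at least 20 reads in every library. For Flt1 the share of novel_circ_050038 was 39.9% ± 4.87 in MIRI+AICAR, 45.5% ± 4.78 in MIRI+Compound C, 49.6% ± 8.61 in MIRI and 49.9% ± 19.9 in Sham. For Ets1 the share of novel_circ_065373 was 64.8% ± 5.03 in MIRI+AICAR, 57.7% ± 6.98 in MIRI+Compound C, 59.9% ± 8.31 in MIRI and 66.7% ± 9.80 in Sham. Over the 4 comparisons that were tested, 12 exact permutation tests (two-sided, over libraries) gave a smallest p of 0.107, for Flt1 in MIRI+AICAR against MIRI, and a smallest adjusted p of 0.799. MIRI against Sham cannot give an exact p below 0.100, and the others cannot give one below 0.0179, so no single share could have passed after adjustment over 12 tests, and these tests say nothing about whether shares were stable.

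The other comparisons were tested with edgeR's quasi-likelihood F test over all host genes, and each shares libraries with those above. MIRI against Sham addresses the injury itself, 1 week on. In that comparison 0 of the 5 genes were called, which here means a Benjamini-Hochberg adjusted p below 0.05, where 0.162% of all host genes were called. An unadjusted p under 0.05 was found for 1 of the 5 genes and for 334 of all 3699 host genes. The log2 fold change was -0.36 for Flt1 (SE 0.21, adjusted p = 0.666), -0.36 for Adgrf5 (SE 0.31, adjusted p = 0.807), -0.26 for Ets1 (SE 0.21, adjusted p = 0.799) and 0.33 for St6galnac3 (SE 0.27, adjusted p = 0.799).

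For Vwf, MIRI against Sham gave a log2 of 1.98 (SE 0.74, edgeR adjusted p = 0.333), with means of 148.2 ± 188.7 CPM in MIRI and 35.4 ± 34.1 in Sham (n = 3 each). Without MIRI replicate 1 it was 0.12. The St6galnac3 value also turned to -0.29 without that library. Libraries of MIRI and Sham overlapped for all 5 genes, where 5.68% of host genes lay wholly higher and 6.22% wholly lower in MIRI.

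MIRI+AICAR against MIRI, which addresses activation of AMPK after the injury, likewise gave 0 of 5 called genes against 0.0270% of all host genes. An unadjusted p under 0.05 was found for 250 of all 3699 host genes and for 1 of the 5 genes. That 1 was St6galnac3, with a log2 of -0.76 (SE 0.24, edgeR adjusted p = 0.456) and means of 423.1 CPM in MIRI+AICAR and 713.1 CPM in MIRI, and the value was -0.14 without MIRI replicate 1. Flt1 had -0.22 (SE 0.19, adjusted p = 0.931), Ets1 -0.04 (SE 0.19, adjusted p = 0.984), Adgrf5 0.19 (SE 0.27, adjusted p = 0.977) and Vwf -0.45 (SE 0.55, adjusted p = 0.973). The Vwf value was 1.41 without MIRI replicate 1. All 5 genes overlapped between these groups, where 2.51% of host genes lay wholly higher and 2.00% wholly lower.

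In MIRI+Compound C against Sham 0 of 5 genes were called by edgeR, as against 0.0270% of all host genes. Of the 5, 0 had an unadjusted p under 0.05, as against 236 of all 3699 host genes. The log2 fold change was 0.29 for Flt1 (SE 0.18, adjusted p = 0.854), 0.44 for Adgrf5 (SE 0.26, adjusted p = 0.853), 0.18 for Ets1 (SE 0.18, adjusted p = 0.949), 0.27 for St6galnac3 (SE 0.25, adjusted p = 0.937) and 0.01 for Vwf (SE 0.80, adjusted p = 1.00). Flt1, which lay above every MIRI library in MIRI+Compound C, thus overlapped with Sham. So did the other 4 genes, where 2.95% of host genes lay wholly higher and 1.92% wholly lower.

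MIRI+AICAR against Sham was the comparison with the most calls over the table, 1.97% of host genes, and 0 of the 5 genes were among them. Flt1 had a log2 of -0.58 (SE 0.18, edgeR adjusted p = 0.106), with 4 of 5 MIRI+AICAR libraries below all 3 Sham libraries. It did not pass, and without MIRI+AICAR replicate 4, its highest library at 409.3 CPM, the value was -0.70 with an adjusted p = 0.0442, in a range of 0.0442 to 0.461 over the alternatives. Vwf had 1.53 (SE 0.70, adjusted p = 0.325), with means of 110.1 CPM in MIRI+AICAR and 35.4 CPM in Sham. These were the 2 of 5 genes with an unadjusted p under 0.05, which 487 of all 3699 host genes also had.

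Ets1 had -0.29 (SE 0.19, edgeR adjusted p = 0.536), Adgrf5 -0.17 (SE 0.26, adjusted p = 0.878) and St6galnac3 -0.43 (SE 0.25, adjusted p = 0.497) in MIRI+AICAR against Sham. Libraries did not overlap for Vwf, 1 gene higher, where 5.81% of host genes lay wholly higher, and for St6galnac3, 1 gene lower, where 4.97% lay wholly lower.

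**Figure D3:**
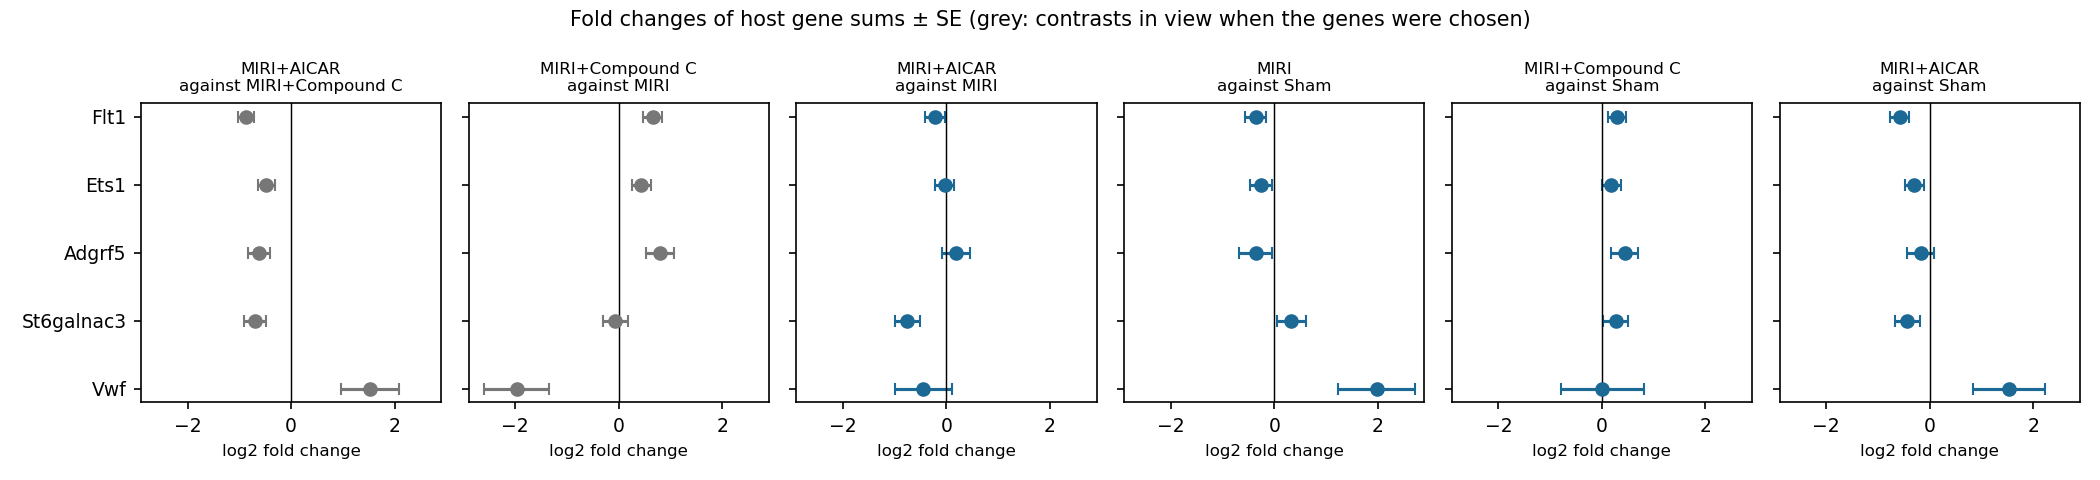
Log2 fold changes of the summed circRNA reads of each gene with SE bars in 6 comparisons, the first-named group over the second. Grey points belong to comparisons described with no test, blue points to tested ones. Flt1, Ets1 and Adgrf5 lie left of 0 in MIRI+AICAR against MIRI+Compound C and right of 0 in MIRI+Compound C against MIRI, and Vwf has the widest bars.

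Of the 12 circles tested singly (5 of Flt1, 3 of Ets1, 2 of Adgrf5 and 1 each of St6galnac3 and Vwf), edgeR called 0 in each of these comparisons. Over all circles it called 0.0253% in MIRI against Sham, 0.0253% in MIRI+AICAR against MIRI, 0% in MIRI+Compound C against Sham and 0.467% in MIRI+AICAR against Sham. DESeq2 also called 0 of the 12. In MIRI+AICAR against Sham, however, it gave an adjusted p to only 1312 of the 7917 circles, and a circle without one could not be called. By edgeR, 388 of all 7917 circles had an unadjusted p under 0.05 in MIRI+AICAR against MIRI and 824 in MIRI+AICAR against Sham. In MIRI against Sham 540 had one, and in MIRI+Compound C against Sham 409. Of the 12 circles there was 1 in MIRI+AICAR against MIRI and 1 in MIRI+AICAR against Sham, and 0 in the others. The first was St6galnac3 novel_circ_042340 with a log2 of -0.50 (SE 0.22, adjusted p = 0.937). The second was Flt1 novel_circ_050038, at -0.75 (SE 0.26, adjusted p = 0.233), whose 139.6 ± 40.5 CPM in MIRI+AICAR stood against 240.2 ± 91.9 in Sham.

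The other endothelial markers give the setting of these values. Of 50 listed genes besides the 5, 26 were tested, 11 were below the filter and 13 had no counted circRNA. Their sum was 5719 to 6782 CPM in MIRI+AICAR, 7844 to 10320 in MIRI+Compound C, 6287 to 7078 in MIRI and 6725 to 8804 in Sham, so MIRI+Compound C lay wholly above MIRI+AICAR and MIRI. The sum weighs genes by their reads, and Pecam1 and Cd36 had the highest means. Pecam1 averaged 1542 CPM in MIRI+AICAR, 1976 in MIRI+Compound C, 1473 in MIRI and 1781 in Sham. For Cd36 these means were 1358, 2164, 1556 and 1573 CPM. Over the 26 genes the median log2 was 0.42 in MIRI+Compound C against MIRI (18 positive, 8 negative) and -0.37 in MIRI+AICAR against MIRI+Compound C (4 positive, 22 negative), where the median of all host genes was 0.00 and 0.02. The list was drawn up with earlier results of these libraries known, so its direction is no independent evidence.

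In each of the 4 tested comparisons edgeR called 0 of the 26 endothelial markers. Without MIRI replicate 1, when 27 could be tested, it called 1 lower in MIRI against Sham (Mmrn2, log2 -6.64, SE 1.45, adjusted p = 0.0488). It called 1 lower in MIRI+AICAR against Sham (Dock9, adjusted p = 0.0352), and 0 in both without MIRI+AICAR replicate 5 as well. Mmrn2 averaged 11.3 ± 19.5 CPM in MIRI (n = 3) and 72.9 ± 20.9 in Sham, so its MIRI values were near the floor, where a listed 0 can be 1 read. Calls over all host genes in MIRI+AICAR against Sham were 96 of 3965 without MIRI replicate 1 and 78 of 3876 without both libraries, against 73 of 3699 with them. With all 16 libraries, 7 of the 26 markers were positive and 19 negative in MIRI against Sham (median log2 -0.36, against 0.02 over all host genes). In MIRI+AICAR against Sham it was again 7 and 19 (median -0.26, against 0.04). MIRI+AICAR against MIRI gave 15 positive and 11 negative (median 0.06), and MIRI+Compound C against Sham 14 and 12 (median 0.07). The markers nearest to a call in MIRI+AICAR against Sham were Dock9, a guanine exchange factor gene (log2 -1.001, adjusted p = 0.0534), Epas1, which encodes the oxygen-regulated factor HIF-2 alpha (log2 -1.09, adjusted p = 0.0829), and Ushbp1 (log2 -1.21, adjusted p = 0.100).

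Markers of other cell types also differed in level between groups. The sum of 6 smooth muscle and pericyte genes was 2495 to 2975 CPM in MIRI+AICAR, 3611 to 4895 in MIRI+Compound C, 2768 to 3568 in MIRI and 3771 to 4149 in Sham. Pdgfd and Abcc9 weighed most in it, with means of 2010 and 1438 CPM in Sham. Pdgfd, a growth factor gene, fell in MIRI+AICAR against Sham (log2 -0.75, SE 0.14, edgeR adjusted p = 0.00252). Of the 6 genes 4 were negative there and 2 positive, Itga8 (log2 1.06, SE 0.62) and Notch3 (log2 1.05, SE 0.90). In MIRI+Compound C against MIRI 3 were positive and 3 negative (median log2 0.03). The defining genes Pdgfrb, Cspg4 and Acta2 of this list had no counted circRNA. The sum of 12 leukocyte genes was 3507 to 4474 CPM in MIRI+AICAR, 2772 to 3395 in MIRI+Compound C, 3098 to 4541 in MIRI (3098 to 3383 without MIRI replicate 1) and 1890 to 3203 in Sham. F13a1 is counted both here and in the platelet list. Ptprc and Itgb2 were below the filter, and Cd68, Csf1r and Cd163 had no counted circRNA. Fibroblast genes, 8 tested, summed to 1139 to 1293 CPM in MIRI+AICAR, 773.3 to 1062 in MIRI+Compound C, 1066 to 1881 in MIRI (1066 to 1184 without MIRI replicate 1) and 790.5 to 972.6 in Sham. Of the fibroblast list Pdgfra was below the filter, and Lum, Tcf21 and Postn had no counted circRNA. Of these lists, edgeR also called the immune cell gene Cd84 higher in MIRI against Sham (log2 2.98, adjusted p = 0.0152), and the value was 2.48 with an adjusted p = 0.0838 without MIRI replicate 1. In MIRI+AICAR against Sham, Adgre1 and the immune cell gene Itgam rose (log2 3.95, adjusted p = 0.0147, for Itgam), as did Col3a1, which encodes a collagen chain (log2 4.71, adjusted p = 0.0118). Itgam and Col3a1 each averaged only 4.25 ± 7.36 CPM in Sham, near the floor, where a listed 0 can be 1 read. In MIRI+AICAR they averaged 83.3 ± 37.1 and 142.4 ± 28.2 CPM, so the size of these fold changes depends on that floor. Of the 10 cardiac muscle genes 2 were positive and 8 negative in that comparison (median log2 -0.20), and the 1 called was Slc8a1, which encodes the sodium-calcium exchanger (log2 0.78, adjusted p = 0.0490). These 4 were also called without MIRI replicate 1, alone or with MIRI+AICAR replicate 5. Leaving out MIRI replicate 1 alone added Ttn (log2 -0.40, adjusted p = 0.0454) and Abcc9 (log2 -0.47, adjusted p = 0.0411) to that comparison. Calls over all host genes went there from 73 of 3699 to 96 of 3965. Ttn and Abcc9 were not called with MIRI+AICAR replicate 5 left out as well. In MIRI+Compound C against Sham, calls over all host genes went from 1 of 3699 to 6 of 3965 without MIRI replicate 1. Col3a1 was then called in that comparison (log2 4.51, adjusted p = 0.0188). It was also called there without both libraries (log2 4.52, edgeR adjusted p = 0.0165). The part of these cell types in the values of the 5 genes was not tested.

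**Figure D4:**
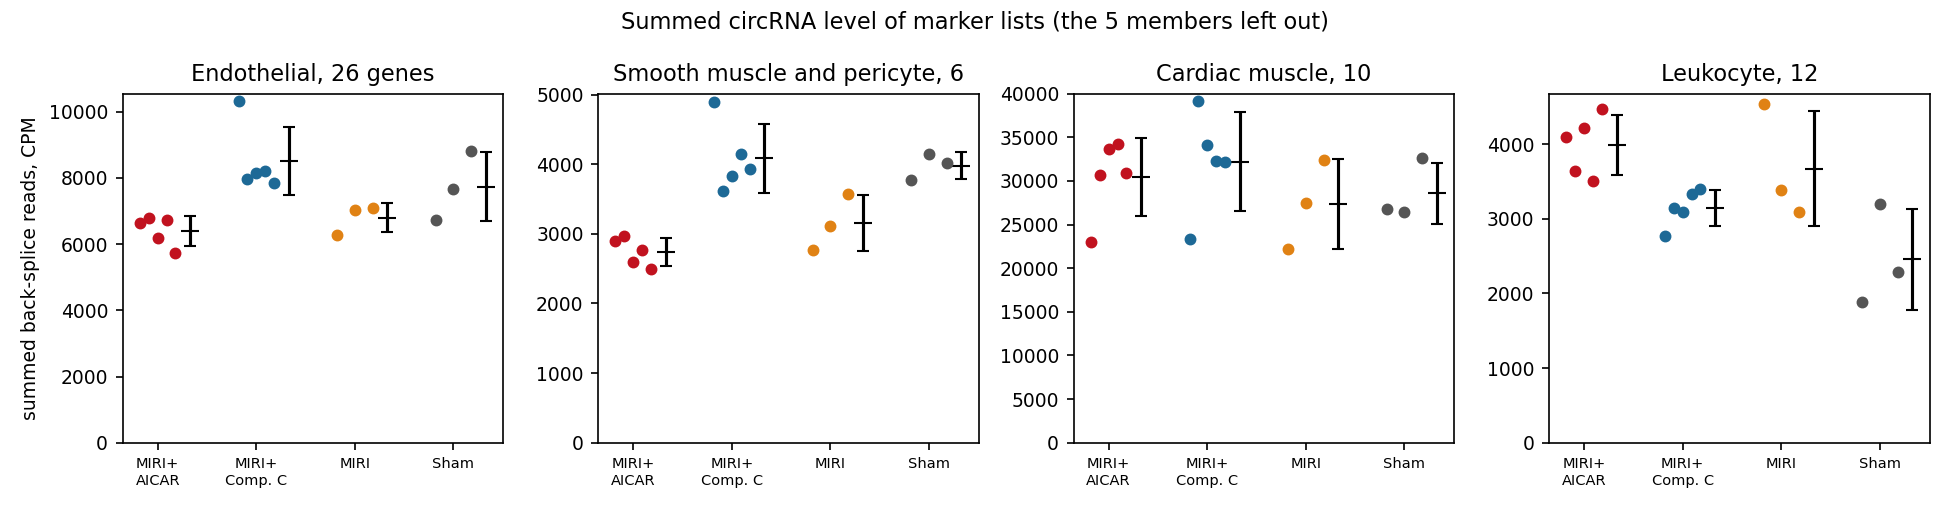
Summed circRNA CPM of marker genes by library, for endothelial (26 genes, without the 5), smooth muscle and pericyte (6), cardiac muscle (10) and leukocyte (12) lists, with mean ± SD. Endothelial sums of MIRI+Compound C sit between 7844 and 10320 CPM, above all MIRI+AICAR and MIRI libraries. Leukocyte sums of MIRI+AICAR, 3507 to 4474 CPM, sit above those of MIRI+Compound C.

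Because megakaryocytes also make von Willebrand factor, Vwf was set beside the platelet and megakaryocyte list. That list had 7 tested genes of 27, among them Itgb3, Trpc6, Pde5a, Med12l and F13a1, with 6 below the filter. The other 14, among them the defining genes Itga2b, Pf4, Ppbp and Gp1ba, had no counted circRNA. It summed to 2003 to 5360 CPM in MIRI+AICAR, 1600 to 2062 in MIRI+Compound C, 2057 to 16860 in MIRI and 1581 to 2210 in Sham. On the log2 scale the Vwf level and this sum had a Pearson r of 0.71 over the 16 libraries, and both were highest in MIRI replicate 1 and next in MIRI+AICAR replicate 5. Without those libraries r was 0.52 over the other 14. For St6galnac3 r was 0.43 over 16 libraries and -0.41 over the 14, and for Flt1 it was -0.33 and -0.71. Ets1 and Adgrf5 had -0.50 and -0.36 over the 16. Whether platelets or megakaryocytes held the Vwf circles was not tested.

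In MIRI against Sham 6 of the 7 platelet genes were positive and 1 negative (median log2 2.02), and 1 was called: Itgb3, which encodes a chain of the platelet fibrinogen receptor (log2 5.45, SE 1.16, edgeR adjusted p = 0.0430). It stood at 1252, 35.9 and 58.8 CPM in MIRI libraries and at 34.4, 0 and 0 CPM in Sham libraries, so that MIRI replicate 1 carried the value. Without that library its log2 was 2.15 (adjusted p = 0.641), the median of the 7 genes was 0.31 and 0 were called. In MIRI+AICAR against Sham edgeR then called 2, Itgb3 (log2 3.14, adjusted p = 0.0249) and Pde5a (log2 1.14, adjusted p = 0.0240), and 0 without MIRI+AICAR replicate 5 as well. Over all host genes it called 96 of 3965 and 78 of 3876 in these settings, against 73 of 3699 with all libraries. With MIRI replicate 1 and MIRI+AICAR replicate 5 left out together, Vwf had a log2 of 0.14 in MIRI against Sham and 1.21 in MIRI+AICAR against MIRI, with adjusted p = 0.991 and 0.893 in edgeR. The other 4 MIRI+AICAR libraries had platelet sums of 2003 to 2150 CPM and 75.6 to 118.3 CPM of Vwf, and Sham libraries had platelet sums of 1581 to 2210 CPM and 0 to 68.0 CPM of Vwf.

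**Figure D5:**
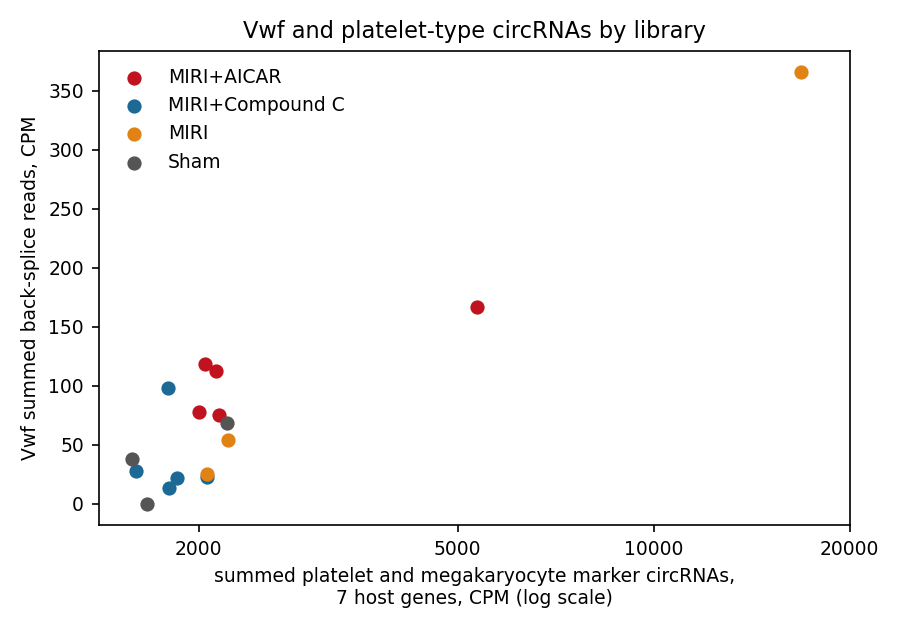
Summed Vwf circRNA level against the summed level of 7 platelet and megakaryocyte host genes in the 16 libraries, both in CPM, with a log scale on the x axis. MIRI replicate 1 lies at 16860 and 365.4 CPM and MIRI+AICAR replicate 5 at 5360 and 166.3 CPM, and the other libraries lie between 1581 and 2222 CPM on the x axis.

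Relatives of the 5 genes were counted by family. In the VEGF family 3 of 9 other genes were tested (Nrp1, Nrp2 and Vegfc), with 0 called by edgeR in each tested comparison. All 3 were negative in MIRI against Sham, led by the co-receptor gene Nrp2 (log2 -1.22, adjusted p = 0.525, and -0.84 without MIRI replicate 1). The main VEGF receptor gene of endothelium, Kdr, and the ligand gene Vegfa were below the filter. In MIRI+AICAR against Sham the 3 were also negative, with a median log2 of -0.48, against -0.58 for Flt1. They were negative in MIRI+Compound C against Sham too (median -0.32), where Flt1 had 0.29. In MIRI+Compound C against MIRI 1 was positive and 2 negative (median -0.03), where Flt1 had 0.65. In MIRI+AICAR against MIRI 2 were positive and 1 negative (median 0.36), where Flt1 had -0.22. The 3 thus did not follow the sign of Flt1 throughout.

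Of 18 other ETS family genes 7 were tested and 0 called. Elk3, a repressor of the family found in endothelium, had a log2 of -0.85 in MIRI+AICAR against Sham (SE 0.25, edgeR adjusted p = 0.0847). Without MIRI replicate 1 and MIRI+AICAR replicate 5 it was -0.94 (edgeR adjusted p = 0.0493), where 78 of 3876 host genes were called. Elf2 had 0.39 in MIRI against Sham (SE 0.13, adjusted p = 0.251), and 0.16 without MIRI replicate 1. Among 7 tested of 15 other adhesion G protein-coupled receptor genes, Adgre1, which encodes the macrophage marker F4/80, rose in MIRI+AICAR against Sham (log2 0.86, SE 0.16, adjusted p = 0.00252) and the other 6 were not called. Of 19 other sialyltransferase genes 5 were tested and 0 called, with a smallest adjusted p of 0.506. Stab1, the 1 tested lymphatic gene of 9, had a log2 of 0.11 in MIRI+AICAR against Sham, and of 7 endocardial genes 3 were tested and 0 called.

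Correlations between the 5 genes differed by pair. Over the 16 libraries Flt1 had a Pearson r of 0.66 with Ets1, 0.58 with St6galnac3, 0.44 with Adgrf5 and -0.54 with Vwf, and the values of Vwf with the other genes ran from -0.54 to -0.06. These correlations are of log2 CPM, and the points share the 4 groups and the scaling of each library. The libraries include those whose fold changes chose the genes, and MIRI replicate 1, which was high in St6galnac3 and Vwf. Nothing is therefore read from the signs, and values without MIRI replicate 1 were not computed. By the same measure over the 16 libraries, the host genes most like Flt1 were Myo10 (r = 0.84), Lnx1 (0.84) and Dnm3 (0.82). Those most like Ets1 were Wdr20 (0.86), Myo1e (0.85) and Slc26a10 (0.84), and for Adgrf5 they were Irf2 (0.82), Erbb2 (0.72) and Dbnl (0.71). For St6galnac3 they were Cyfip1 (0.81), Smox (0.80) and Rab11a (0.80), and for Vwf Otulinl (0.86), Pak2 (0.84) and Sdccag8 (0.83).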

How the data were processed

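Back-splice reads were counted in 16 mouse heart libraries. Per the labels' protocols, ribosomal RNA was removed, linear RNA digested with RNase R, and dUTP libraries sequenced as DNA nanoballs. The authors deposited counts per circRNA that come from CIRI, per the file headers. For the CIRI version, the aligner and any read minimum, the sources used here name none. No count of 1 occurs, so a listed 0 can be 1 read. The submitters' processing notes name mm9, but 88.9% of exonic starts and 88.8% of ends lie on GENCODE M21 exon boundaries of GRCm38 (0.350% and 0.314% after a shift of 1 base), so coordinates are GRCm38.

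Counts were analysed singly and summed per host gene with edgeR 4.0.16 in R 4.3.3: filterByExpr with a minimum count of 5 and total of 15 (3699 host genes, 7917 circRNAs), TMM, 1 fit of the 4 groups, and Benjamini-Hochberg adjustment over all features. DESeq2 1.42.0, RLE scaling, no filter, left-out libraries and a replicate block were alternatives. SE is the fold change over the root of F. The script was tested on simulated data. Replicate libraries differed beyond sampling noise (chi-square over its degrees of freedom 1.82 to 5.36).

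The 5 genes and the lists (endothelial, lymphatic, endocardial, VEGF, ETS, adhesion receptor, sialyltransferase, platelet, cardiac muscle, smooth muscle, fibroblast and leukocyte) were chosen with earlier results of these data known. Named circles were the 3 with most reads of each gene and those with the smallest p of their gene in a tested comparison, and named list genes were those called or with the smallest p. Defining markers that were absent or tested were named as a check of the tissue. List values without the libraries that stand apart were added after seeing the data.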

Additional observations from a re-analysis of the deposited data

Results flagged for a closer look

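A library stood far from the others of its group in 6 of the 42 group values screened. All 6 lay in MIRI+AICAR or MIRI+Compound C (n = 5 each), so the list does not cover MIRI replicate 1, which is described above. Chance gives about 1 in 20 for independent values. A gene sum holds the reads of its circles, so no excess is read from the 6. Flt1 in MIRI+Compound C replicate 1 was 707.6 CPM, against 522.6 to 571.6 in the other 4 libraries, and in MIRI+AICAR replicate 4 it was 409.3 CPM, against 273.6 to 292.9. Vwf in MIRI+Compound C replicate 2 was 97.8 CPM, against 13.8 to 27.7. Flt1 novel_circ_050033 was 67.4 CPM in MIRI+Compound C replicate 1, against 24.2 to 36.5, and Flt1 novel_circ_050022 was 36.0 CPM in MIRI+AICAR replicate 5, against 69.2 to 74.7. The platelet and megakaryocyte sum in MIRI+AICAR replicate 5 was 5360 CPM, against 2003 to 2150.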

How the results depend on the processing

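Without the filter on low counts, 1 of the 5 genes was called in MIRI against Sham (Vwf, log2 1.98, edgeR adjusted p = 0.0115), 1 in MIRI+AICAR against MIRI (St6galnac3, -0.74, 0.00730) and 1 in MIRI+AICAR against Sham (Vwf, 1.54, 0.0452), and 1 circle in MIRI+AICAR against MIRI, novel_circ_042339 with 37 reads in 1 library. Calls over all host genes then numbered 52, 34, 13 and 114, against 6, 1, 1 and 73 with it, for MIRI against Sham, then MIRI+AICAR against MIRI, then MIRI+Compound C and MIRI+AICAR each against Sham. DESeq2 called 13, 3, 1 and 86 and gave no adjusted p for Vwf in MIRI against Sham. Leaving out 1 library gave 0 to 1 called genes in MIRI+AICAR against Sham (Flt1 without MIRI+AICAR replicate 4) and 0 in the other 3. Fold changes that changed sign were St6galnac3 in MIRI against Sham (-0.29 to 0.59 with 1 library left out, -0.28 without MIRI replicate 1 and MIRI+AICAR replicate 5), Ets1 (-0.16 to 0.072), Adgrf5 (-0.042 to 0.49) and Vwf (-0.91 to 1.41, and 1.21 without both libraries) in MIRI+AICAR against MIRI, Vwf in MIRI+Compound C against Sham (-0.76 to 0.79, and -0.0021 with RLE scaling), and St6galnac3 in MIRI+Compound C against MIRI (-0.32 to 0.55, and 0.54 without both libraries). The cause was not tested. The labels do not say that replicate numbers pair libraries. Same-numbered libraries correlated at -0.07 to 0.11 and differently numbered ones at -0.16 to 0.20. These are deviations from the means of small groups, so they cannot settle whether the numbers pair libraries. With the replicate block 0 of the 5 genes were called in each comparison. It gave 57 calls over all host genes in MIRI+AICAR against Sham, against 73 without the block. Under the alternatives that leave out no single library, 89 tested values kept their direction and side of the threshold, 3 passed it and 3 changed sign. With 1 library left out these numbers were 141, 1 and 8. Vwf had 0 to 54 reads per library.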
